A study of Homo sapiens with 12 samples.

Results

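MCF-10A cells that had squeezed through capillary-sized constrictions were compared with MCF-10A cells that had not, over all 2680 genes of the deposited MCF-10A gene table. No gene was added or removed. The authors had selected every gene of that table at an unadjusted DESeq2 p-value below 0.05 on the same libraries. The tables of the 3 cell lines in the series hold 3090 different genes. MCF-10A is a non-malignant human breast epithelial line with basal features, grown here with horse serum, insulin, epidermal growth factor, cholera toxin and hydrocortisone. The constriction group held 2 libraries of cells pushed along channels with a 5 × 5 µm cross-section and a length of 150 µm at 7 to 33 cmH2O and collected after leaving them. The control group held 2 libraries of the same line that did not transit. The sources used here do not state whether control cells passed through a chip or how long either group stood before lysis. Constriction libraries pooled cells from chips run side by side, and all cells were of 1 line, so each library is a culture and not an individual.

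A cell that enters a channel narrower than its nucleus deforms both the cell body and the nucleus, and the nuclear envelope can open for a time. MCF-10A cells keep programmes of stratified epithelium, and when they differentiate they can make keratins, kallikrein proteases that trim the bonds between surface cells, and small proline-rich proteins that are crosslinked into the cornified envelope. Poly-A selected RNA sequencing reports how much spliced and polyadenylated RNA of each gene was left in the collected cells. In bulk RNA, fewer cells of a type and less RNA per cell cannot be told apart.

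The libraries were deep, but the table is a thin slice of them. Total reads, worked back from the deposited reads, gene lengths and FPKM, were 29978695 and 35494737 in the constriction libraries and 36123663 and 46436989 in the control libraries. The 2680 genes took 0.271% and 0.0561% of the reads of constriction replicates 1 and 2, and 0.382% and 0.252% of those of control replicates 1 and 2. In the control libraries 2651 and 2648 of the genes had reads, against 191 and 202 in the constriction libraries. Among the genes with reads, 155 had more than 100 reads in constriction replicate 1 and 32 did in constriction replicate 2. Genes with 1 to 10 reads numbered 27 and 101 in the constriction libraries, against 733 and 592 in the controls. The amount of cells or RNA that went into each library was not analysed here, and the part of library input in the counts of 0 was not tested. Libraries carried no molecular identifiers, so every limit given for a count of 0 covers counting error only.

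Nearly the whole table was lower after transit. The mean normalised count, which is the read count divided by the library's size factor, was lower in the constriction libraries for 2533 genes and higher for 147. For all 2533 lower genes both constriction libraries lay below both control libraries, which is 94.5% of the table. Selecting genes by p-value on the same libraries favours groups that separate. This share therefore describes the table and not the genes of MCF-10A in general. Both constriction libraries lay above both controls for 61 genes, 2.28% of the table. The median log2 ratio of constriction over control was -2.28 over all genes, -2.36 over the lower genes and 5.69 over the higher ones. Where 1 group had no read, ratios were set at the limit that 3 reads per library allow.

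Complete absence of reads, rather than a graded decrease, made up most of this difference. A total of 2402 genes, 89.6% of the table, lacked any read in either constriction library but had reads in each control library. Only 114 genes had reads in all 4 libraries, 36 of them lower and 78 higher after transit. The genes at 0 were mostly weakly expressed in control cells, with a median normalised count of 16.5 and a median FPKM of 0.249. Their control means ran from 6.88 to 537, with 262 genes at 50 or more and 76 at 100 or more. At the control level, these genes together would have given 54055 reads in constriction replicate 1 and 62948 in constriction replicate 2. A limit of 3 reads per library puts the decrease at 2-fold or more for all 2402 genes, 10-fold or more for 487 and 50-fold or more for 26. The smallest limit was 2.05-fold, for TGFB2-AS1, an antisense RNA of the TGFB2 locus, and the median was 4.90-fold.

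**Figure D1:**
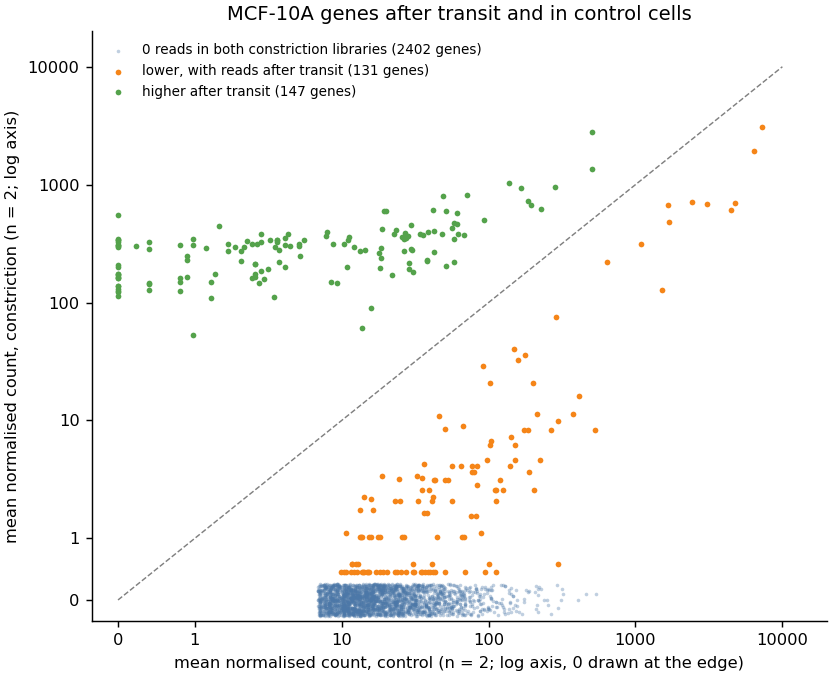
Mean normalised count of each of the 2680 genes in control cells (horizontal axis) and after transit (vertical axis), both on log axes, with 2 libraries a group and the dashed line marking equal values. The 2402 genes with 0 reads in both constriction libraries are spread slightly around 0 for visibility and span control means from 6.88 to 537, while the 147 higher genes lie above the line.

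edgeR's quasi-likelihood test with Benjamini-Hochberg adjustment over the 2680 genes called 2497 genes lower, 93.2% of the table, and 68 genes higher, 2.54%. Every gene of the table had already been selected by the authors at an unadjusted p-value below 0.05 on the same libraries, so these counts describe the table and are not independent evidence. All 2402 genes at 0 reads passed the test, as did 95 of the 131 lower genes that kept reads. With the replicate number as a block, 2272 genes (84.8%) were called lower, of which 2265 were shared with the unblocked fit, and 1 gene was called higher. Without control replicate 1 the fit called 1294 genes (48.3%) lower and 1 higher, and without control replicate 2 it called 1134 (42.3%) lower and 1 higher. These shares are the background for the counts of list members called lower with the block or without a control library. Without constriction replicate 1 the higher calls numbered 11, and without constriction replicate 2 they numbered 142.

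The 9 abundant genes described next kept reads in every library, and 7 of them were lower after transit. They are 9 of the 10 genes with the highest mean normalised count, and the tenth, a transcript used to tell sex, was left out for that reason and not for its values. KRT16, a type I keratin of wounded and hyperproliferative epithelium (chromosome 17, 41609778 to 41615899), gave 2519 and 3029 reads after transit against 7163 and 9641 in the controls. Both constriction libraries were below both controls, with a log2 ratio of the mean normalised counts of -1.24 ± 0.06 (SE from the spread of the normalised counts, n = 2 a group). KLK7, a kallikrein protease of the skin surface that cleaves corneodesmosomes, had 682 and 555 reads against 6497 and 4058. Its log2 ratio was -2.78 ± 0.54 (SE). KLK10, a kallikrein of the same gene cluster on chromosome 19, had 415 and 842 reads against 2233 and 5026, a log2 ratio of -2.17 ± 0.57 (SE). The 2 control libraries of KLK10 differed by more than those of KRT16, but the groups did not overlap.

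In the other abundant lower genes, too, both constriction libraries lay below both controls. CLDN4, a claudin that seals tight junctions, had 819 and 427 reads after transit against 2589 and 2961 in the controls, a log2 ratio of -1.77 ± 0.55 (SE). PRSS8, which encodes the membrane-anchored serine protease prostasin, had 261 and 619 reads against 2083 and 1699, a log2 ratio of -1.82 ± 0.58 (SE). C1orf74, a gene of unassigned function, had 531 and 677 reads against 1857 and 1904, a log2 ratio of -1.31 ± 0.15 (SE). The processed pseudogene RPL39P3, whose reads may belong to the near-identical ribosomal protein gene RPL39, had 305 and 816 reads against 6622 and 3083. None of these 7 genes passed the unblocked test, with adjusted p-values by edgeR from 0.0799 for RPL39P3 to 0.448 for C1orf74. With the replicate block the same edgeR test called 5 of them, with adjusted p-values of 1.75e-24 for KRT16, 1.87e-16 for KLK7, 2.86e-12 for RPL39P3, 0.000535 for KLK10 and 0.00399 for CLDN4. The libraries gave no support for this pairing (r = -0.04 over 2680 genes). A crossed pairing called nearly as many genes of the table lower, 2244 beside 2272. The smaller p-values with the block therefore do not add evidence for the 5 genes. Over all alternatives tried, the adjusted p-value ran from 5.62e-35 to 1 for KRT16 and from 1.87e-16 to 1 for KLK7. For the other 3 the range was 2.45e-15 to 1 for RPL39P3, 9.42e-05 to 1 for KLK10 and 0.0017 to 1 for CLDN4. Every fit used only genes already selected on the same libraries. The p-values of these and all later genes are therefore not independent evidence.

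The other 2 of these abundant genes were higher after transit. MT-ATP8, the mitochondrially encoded subunit 8 of ATP synthase, had 3695 and 1120 reads in constriction replicates 1 and 2 and 533 and 620 in the controls, a log2 ratio of 2.47 ± 0.85 (SE). Without constriction replicate 1 the log2 ratio was 1.197. MT-ATP8 did not pass the unblocked edgeR test (adjusted p = 0.154) and was the 1 gene called higher with the block (adjusted p = 0.0011), with 0.000681 to 1 over all alternatives. IGFBP7, a secreted protein that binds insulin-like growth factors, had 1234 and 1185 reads after transit against 467 and 697 in the controls, a log2 ratio of 1.43 ± 0.19 (SE). Its constriction libraries were alike and both lay above both controls, but it passed neither fit (edgeR adjusted p = 0.428, and 0.239 with the block).

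**Figure D2:**
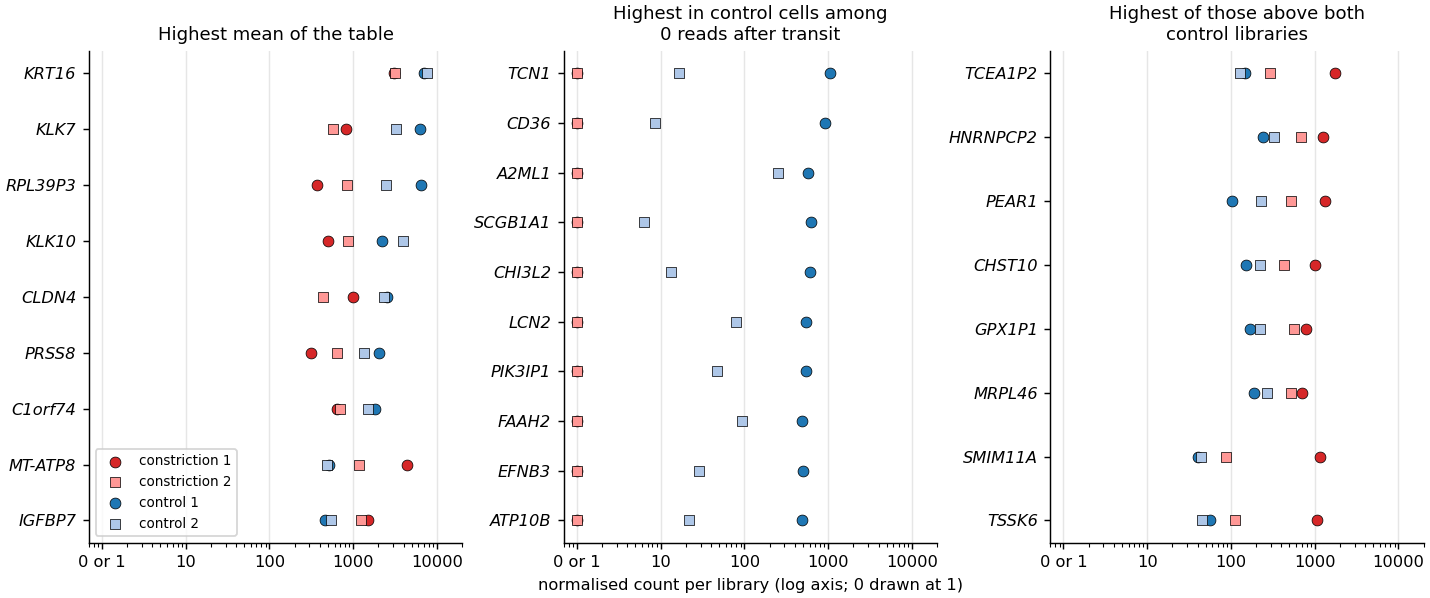
Normalised count in each library (log axis, 0 drawn at 1) for 9 of the 10 genes with the highest mean, the 10 genes with the highest control mean among those at 0 reads after transit, and 8 further genes above both controls. Red symbols are constriction and blue symbols control libraries, circles replicate 1 and squares replicate 2. The groups separate in every row, and in the middle panel control replicate 1 lies to the right of control replicate 2 in all 10 rows.

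Late epidermal differentiation had the largest listed share of the 25 gene lists examined. Of 58 genes of the cornified envelope and terminal keratinocyte differentiation, 19 were listed, all of them lower, and 15 had 0 reads in both constriction libraries. The median log2 ratio of the 19 was -3.64, beside -2.28 over the table, but most of these ratios are limits set by the control count, whose median was 83.8 for the list and 16.6 for the table. They do not show a larger decrease. The edgeR test called 16 of them lower, beside 93.2% of the table. It called 11 of the 19 with the replicate block (84.8% of the table), 6 without control replicate 1 (48.3%) and 5 without control replicate 2 (42.3%), each a smaller share than that of the table. SPRR2A, a small proline-rich crosslinking protein, fell from 335 and 113 control reads to 0. HRNR, a filaggrin-like protein of the cornified layer, fell from 257 and 62 reads to 0. SPRR2A and HRNR were chosen for mention after their values were seen. SPRR2D, a neighbour of SPRR2A in the same family, had 0 and 22 reads after transit against 370 and 499 and did not pass the unblocked test (edgeR adjusted p = 0.0731).

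Several keratins and kallikreins of differentiating epithelia were at or near 0 reads after transit. KRT4, a keratin of mucosal epithelium above the basal layer, fell to 0 from 335 and 129 reads, and its partner KRT13 fell to 0 from 85 and 107. KRT1, the keratin of suprabasal epidermis, fell to 0 from 185 and 5 reads, so that its control level rested on control replicate 1. KLK14, a kallikrein that activates other kallikreins, fell to 0 from 181 and 306 reads. KLK6 kept 4 reads in constriction replicate 2, against 20 and 38 in the controls. In all, 8 of 55 keratin genes and 6 of 15 kallikrein genes were in the table. All were lower, as 94.5% of the table was, and 7 of the keratins and 4 of the kallikreins were called lower, beside 93.2%.

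Some of the differentiation genes lie in chromosomal clusters, while others, such as KRT1, KRT4 and KRT13, lie in neither cluster described here. The epidermal differentiation complex on chromosome 1 (152212082 to 153460701, GRCh38) holds 50 coding genes in the annotation, of which 11 were listed and 10 were at 0 reads after transit. The kallikrein cluster on chromosome 19 (50819148 to 51084245) holds 16, of which 6 were listed and 3 were at 0. For comparison, 1189 of 19969 annotated coding genes, or 5.95%, were in the table at all, and by chromosome this share ran from 3.74% to 7.83%.

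The promoters of these genes held fewer CpG dinucleotides than promoters in general, which was not tested. They are shown because this list had the largest listed share, although lower values were common to 94.5% of the table. RefSeq promoters, 250 bases before to 50 bases after the annotated start, were matched for 14 of the 19 listed genes and held a median of 3.5 CpG dinucleotides, against 22 over 14896 coding genes. The letters TATAA, searched on the gene's strand in the 60 bases before the start, were present in 7 of the 14 promoters, or 50%, and in 6.10% of all 14896. Among coding genes at 0 reads after transit, 783 promoters were matched, with a median of 14 CpG dinucleotides, and 9.20% held the letters. The windows of 3 lower genes are given 5′ to 3′ on the gene's strand with TATAA in capitals, from RefSeq on GRCh38.p14. SPRR2A lies at chr1:153057513-153057572 on the minus strand, KLK7 at chr19:50983918-50983977 on the minus strand and CLDN4 at chr7:73830936-73830995 on the plus strand.
SPRR2A: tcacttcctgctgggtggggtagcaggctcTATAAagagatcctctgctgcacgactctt
KLK7: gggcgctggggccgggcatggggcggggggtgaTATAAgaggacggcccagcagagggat
CLDN4: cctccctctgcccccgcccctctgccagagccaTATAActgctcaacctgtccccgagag
The letters start 30 bases before the RefSeq start in SPRR2A and 27 bases before it in KLK7 and CLDN4. Such a match is a description of the window and not a measured binding site.

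The 10 genes with the highest control mean among those at 0 reads after transit were of mixed function, and most of them were high in control replicate 1 alone. TCN1, which encodes the vitamin B12 carrier haptocorrin (chromosome 11, 59852800 to 59866575), fell to 0 from 1080 and 21 control reads. CD36, a fatty acid and thrombospondin receptor, had 926 and 11 reads in controls. SCGB1A1, the secretoglobin of airway club cells, had 645 and 8. In all 3 genes the control signal came almost wholly from control replicate 1. A2ML1, a protease inhibitor of stratified epithelium, had 581 and 315 reads, and LCN2, the iron-siderophore binding lipocalin, had 557 and 101. For these 2 genes, as for FAAH2 below, both control libraries held at least 100 reads.

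The remaining 5 of these genes had at most 119 reads in control replicate 2. CHI3L2, a chitinase-like secreted protein, had 628 and 17 control reads. PIK3IP1, an inhibitor of phosphatidylinositol 3-kinase, had 555 and 60. FAAH2, a fatty acid amide hydrolase, had 497 and 119. EFNB3, a transmembrane ephrin ligand, had 517 and 36, and ATP10B, a lipid flippase, had 497 and 28. The decrease over the 10 genes was at least 75.7-fold, for ATP10B, and at least 160-fold, for TCN1, and edgeR called each lower in the unblocked fit with adjusted p-values from 0.00297 to 0.00585. Against control replicate 2 alone the same limits ran from 1.88-fold for SCGB1A1 to 74.01-fold for A2ML1, with 4.93-fold for TCN1. With the replicate block none of the 10 passed, with edgeR adjusted p-values from 0.0688 for TCN1 to 0.17 for SCGB1A1.

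The control replicates of many of these genes disagreed. Of the 2402 genes at 0 reads after transit, 1305 had control values within 2-fold of each other, or 54.3%, while control replicate 1 was more than 5 times control replicate 2 in 234 and the reverse held in 70. Among the 76 genes with a control mean of at least 100, control replicate 1 was more than 5 times control replicate 2 in 37, the reverse held in 1 and 13 were within 2-fold. A mean of this size can come from 1 high replicate, so these counts do not show that disagreement goes with expression. PLA2G2A, a secreted phospholipase A2, had 258 and 4 control reads, and WNT4, a WNT ligand of the mammary epithelium, had 247 and 7. In the opposite direction SYT14, a synaptotagmin, had 100 and 354 control reads, and the non-coding RNA LINC00106 had 21 and 119. PLA2G2A, SYT14 and LINC00106 were chosen for mention after their values were seen.

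**Figure D3:**
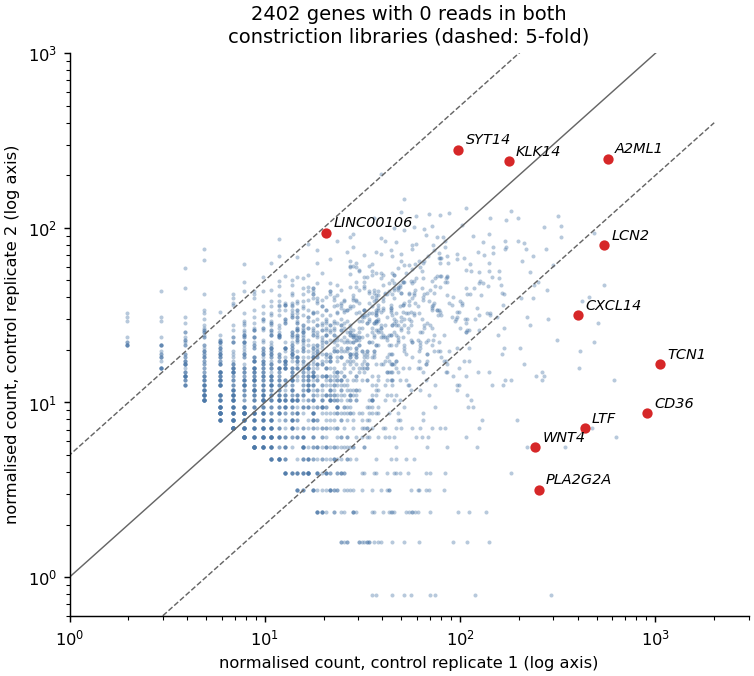
Normalised count in control replicate 1 (horizontal) against control replicate 2 (vertical), both on log axes, for the 2402 genes with 0 reads in both constriction libraries. The solid line marks equal values and the dashed lines a 5-fold difference, and 234 genes, TCN1, CD36 and LTF among them, lie below the lower dashed line.

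Cytokine and chemokine genes in the table had lost every read after transit. Of 142 interleukins, interferons, chemokines and their receptors, 20 were listed and all 20 fell to 0 reads, as did 89.6% of the table. The replicate block left 18 called, and leaving out control replicate 1 or 2 left 10 or 12. CXCL14, a chemokine made by resting epithelium, fell from 409 and 40 reads, and IL11RA, the receptor chain for interleukin 11, from 221 and 96. IFNAR2, a chain of the type I interferon receptor, fell from 48 and 37 reads, and the interleukin 8 receptor CXCR1 from 35 and 47. IFNAR2 and CXCR1 had similar reads in both controls, unlike CXCL14.

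Inflammatory and antiviral target genes, which follow NF-kB and the cGAS-STING pathway that senses DNA in the cytosol, were all lower where they were listed, beside 94.5% of the table. Of 54 NF-kB targets and inflammatory cytokines 7 were listed, and all fell to 0 reads. TNF, the cytokine tumour necrosis factor, fell from 34 and 21 reads, CCL2, a monocyte chemokine, from 37 and 3, and TNIP3, an inhibitor of NF-kB signalling, from 127 and 9. TNFAIP6, a hyaluronan-binding protein induced by TNF, had 72 reads in control replicate 1 and 1 in control replicate 2. Of 60 annotated cGAS-STING components and interferon targets 7 were listed and all 7 were called lower, beside 93.2% of the table. With the block 5 were called (84.8% of the table), without control replicate 1 the count was 1 (48.3%) and without control replicate 2 it was 4 (42.3%). SAMD9L, an interferon-induced translation inhibitor, fell to 0 from 176 and 99 reads. MX1, an antiviral GTPase, had 0 and 6 reads after transit against 79 and 36. RSAD2, the antiviral enzyme viperin, fell to 0 from 25 and 11 reads.

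Genes of the TNF superfamily and secreted growth factors were at 0 reads after transit where they were listed, as 89.6% of all listed genes were. All 9 listed of 47 TNF superfamily genes were at 0 reads after transit, and edgeR called all 9 lower, beside 93.2% of the table. It called 5 without control replicate 1 (48.3% of the table) and 6 without control replicate 2 (42.3%). Among them were TNFRSF14, the herpesvirus entry mediator, which fell from 97 and 38 reads, and EDAR, the ectodysplasin receptor of skin appendages, which fell from 33 and 20. All 13 listed of 90 secreted growth factors were also at 0 reads after transit, and edgeR called all 13 lower, with 4 called without control replicate 1 and 7 without control replicate 2, beside the same table shares. WNT2B, a ligand of the canonical WNT pathway, fell from 49 and 75 reads, BMP6, a bone morphogenetic protein, from 30 and 14, and INHBB, the activin beta B subunit, from 62 and 3. In BMP6 and WNT2B both controls held more than 10 reads.

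Listed cell adhesion genes were lower in shares near those of the table, of which 94.5% was lower, 93.2% called lower and 89.6% at 0 reads. Of 66 protocadherin genes, whose products are homophilic surface proteins best known in neurons, 20 were listed, 18 were at 0 after transit and 19 were called lower, 16 with the block. Leaving out control replicate 1 or 2 left 8 or 9 called. The beta cluster on chromosome 5 (141051135 to 141249365) holds 17 coding genes, of which 9 were listed and called lower and 8 were at 0 reads. PCDHB10 fell to 0 from 268 and 19 reads and PCDHB11 from 143 and 19, while PCDHB2 kept 2 reads in constriction replicate 2 against 79 and 15. The gamma cluster gene PCDHGB7 went the other way in 1 library, with 617 and 21 reads after transit against 36 and 13, and was not called. Reads of neighbouring protocadherins may be shared, since they resemble each other in sequence and gamma cluster genes overlap.

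Among 105 other cell-cell adhesion genes, 16 were listed, 14 of them at 0 beside 89.6% of the table, and 15 were called lower beside 93.2%, with 7 called without control replicate 1 and 9 without control replicate 2. CEACAM6, a cell surface glycoprotein of epithelia, had 0 and 3 reads after transit against 87 and 100. CADM3, an immunoglobulin-type adhesion molecule, fell to 0 from 127 and 33 reads, and DSG4, a desmosomal cadherin of the upper epidermis and hair, from 99 and 26. Of 26 integrins, ITGB7 fell to 0 from 34 and 23 reads and ITGAM from 124 and 7. The other 24 integrin genes were not in the table.

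Listed genes of the extracellular matrix were mostly at 0 reads after transit, as most of the table was. All 10 listed of 74 matrix proteases and inhibitors were called lower, beside 93.2% of the table, with 6 called without control replicate 1 and 4 without control replicate 2. MMP7, the epithelial matrilysin, fell from 414 and 20 reads, ADAMTS13, which cleaves von Willebrand factor, from 111 and 38, and ADAM32 from 43 and 39. Of 77 matrix glycoproteins 10 were listed, 9 at 0 and called lower, 3 when control replicate 1 or 2 was left out. MATN2, a matrilin that bridges matrix fibres, fell from 209 and 50 reads and the small proteoglycan BGN from 199 and 10. FBLN5, a fibulin of elastic fibres, had 379 and 20 reads after transit against 25 and 16 in controls and was not called. The 4 collagens listed of 44 were all at 0, including COL5A3, a chain of the fibril-regulating type V collagen, from 141 and 41 reads.

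Of the listed genes that sense or transmit force, 5 were lower and 1 higher, beside 94.5% of the table lower and 93.2% called lower. Of 52 genes of mechanosensitive channels and mechanotransduction 6 were listed, and 5 had 0 reads after transit. edgeR called these 5 lower, 3 with the block and 1 when control replicate 1 or 2 was left out. TRPV4, a cation channel opened by swelling and stretch, fell from 133 and 61 reads, and MYLK, the kinase that activates myosin II, from 58 and 101. SCNN1D, a subunit of the epithelial sodium channel family, fell from 93 and 39. CAV3, the caveolin of muscle, had 364 and 0 reads after transit against 2 and 7 in controls, and was not called. Of 38 genes of the nuclear envelope and the complex that links it to the cytoskeleton, 2 were listed. SYNE4, the nesprin that binds kinesin at the nuclear envelope, fell to 0 from 74 and 46 reads. NUP210L, a homologue of a nuclear pore membrane protein, had 561 and 0 reads after transit against 1 and 8. The edgeR test called NUP210L higher (adjusted p = 0.0466), but no gene was called higher when p-values were adjusted over the whole annotation. Without constriction replicate 1 the log2 ratio of NUP210L was at most -0.23, a limit set by a count of 0. With the block its adjusted p was 0.885, and over all alternatives it ran from 0.00546 to 1.

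**Figure D4:**
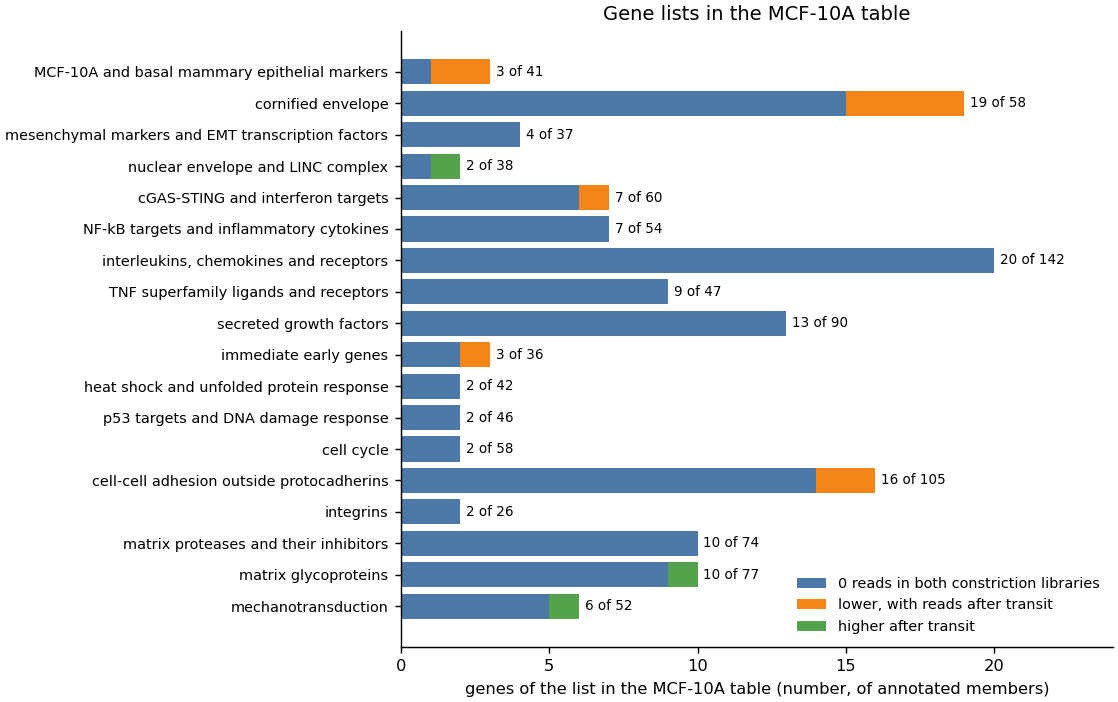
Number of genes of each list that were in the MCF-10A table, with the annotated members of the list beside each bar. Blue parts are genes with 0 reads in both constriction libraries, orange parts lower genes that kept reads and green parts higher genes, and most bars are largely blue.

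Listed genes of stress and growth programmes were lower after transit, as 94.5% of the table was. Of 36 immediate early genes 3 were listed and called lower, beside 93.2% of the table. None of the 3 was called with the block (84.8% of the table) or when control replicate 1 (48.3%) or 2 (42.3%) was left out. EGR2, a zinc finger factor induced by growth signals, fell to 0 from 482 and 9 reads. EGR3, a factor of the same family, fell from 1044 and 39 reads in controls to 0 and 16. KLF2, a factor induced by fluid shear in endothelium, fell to 0 from 111 and 53 reads and had the most similar controls of the 3. Of 42 heat shock and unfolded protein genes, 2 were listed, with CRYAB, a small heat shock protein, at 0 after transit against 165 and 60 reads. Of 46 p53 targets, TP53AIP1, a mitochondrial apoptosis protein, fell to 0 from 12 and 16 reads and the non-coding RNA LINC-PINT from 12 and 19. Of 58 cell cycle genes, CCNB3, a meiotic cyclin, fell from 22 and 23 reads and AURKC, a germ cell Aurora kinase, from 23 and 16. Of 37 mesenchymal markers and epithelial-mesenchymal transition factors 4 were listed, with SNAI1, a repressor of E-cadherin, at 0 after transit against 5 and 38 reads and TGFB3 at 0 against 50 and 60.

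Solute carriers and zinc finger genes were lower in shares near that of the table, 93.2% of which was called lower. Of 386 solute carriers 38 were listed and 37 were called lower, 31 with the block, 10 without control replicate 1 and 13 without control replicate 2. SLC15A2, a proton-coupled peptide transporter, fell to 0 from 168 and 54 reads, and SLC6A14, an amino acid transporter, from 149 and 66. SLC39A1, a zinc importer, had 1 read in constriction replicate 2 against 92 and 125. SLC5A12, a lactate transporter, was called higher from 187 reads in constriction replicate 1 and 0 in the other 3 libraries. Of 542 zinc finger genes 31 were listed, 29 at 0, and 29 were called lower, 22 with the block and 11 when control replicate 1 or 2 was left out. ZNF493 fell to 0 from 175 and 140 reads and ZSCAN2 from 134 and 105, so that both controls of these genes were alike. ZNF460, the 1 higher member, lay above both controls in both constriction libraries. It had 621 and 125 normalised counts after transit against 61.7 and 74.2, and was not called. Of 56 cytochromes P450 5 were listed and fell to 0, among them CYP4Z1, a mammary fatty acid hydroxylase, from 224 and 7 reads and CYP2J2, an arachidonic acid epoxygenase, from 19 and 35.

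Non-coding genes made up much of the table. Protein-coding genes were 44.4% of the listed genes and antisense RNAs 19.6%, against 34.0% and 9.50% of the 58780 annotated genes. Of the 524 antisense genes 497, or 94.8%, were at 0 after transit, beside 89.6% of the table. Of the 524, 469 overlap a coding gene on the other strand, 30 of them a coding gene that is itself listed. The sources do not settle whether the libraries kept strand, so reads of an antisense gene and of its partner may not be separable. Small RNAs, which poly-A selection captures poorly, were mostly at 0 as well, as was 89.6% of the table. All 22 snoRNA genes were at 0 after transit, as were 14 of 17 miRNA genes, 8 of 10 snRNA genes and 16 of 19 genes of the miscellaneous RNA class. The miRNA class held 3 higher genes, the snRNA class 2 and the miscellaneous class 3. SNORD12C, a box C/D guide of ribosomal RNA methylation, fell from 30 and 80 reads, and SNORA33, a box H/ACA guide of pseudouridylation, from 15 and 86. The 5 mitochondrial tRNA genes listed were also at 0 after transit, with MT-TT, the threonine tRNA, at 173 and 96 reads in controls.

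Processed pseudogenes were less often at 0 reads by count than coding genes, and more often higher. Of 178 processed pseudogenes 113 were at 0 after transit, or 63.5%, against 90.9% of coding genes, and 33 were higher, or 18.5%, against 49 of 1189 coding genes, or 4.12%. No test was made of this difference. Reads of a processed pseudogene can come from its parent gene. HNRNPCP2, a copy of the RNA-binding protein gene HNRNPC, had 1029 and 658 reads after transit against 245 and 412 in the controls. GPX1P1, a copy of glutathione peroxidase 1, had 650 and 548 reads against 172 and 278. TCEA1P2, a copy of a transcription elongation factor gene, had 1461 and 280 reads against 150 and 163. All 3 lay above both controls in both constriction libraries, and none was called.

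Higher genes came mainly from 1 library. Over the 147 higher genes constriction replicate 1 held 73663 reads and constriction replicate 2 held 9334, against 4045 and 5606 in the controls. Of these genes 68 had 0 reads in constriction replicate 2, and in 86 constriction replicate 2 lay within or below the controls. In the 79 genes with reads in both constriction libraries, replicate 1 exceeded replicate 2 by a median of 12.9-fold. The 5 highest of the 23 genes with 0 reads in both controls were AL133492.1 with 913 reads, WBP1LP1 with 579, AL353651.3 with 567, LINC01837 with 558 and AL035404.1 with 538, all in constriction replicate 1 and with 0 reads in the other 3 libraries.

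The calls among higher genes followed that library. Of the 68 genes called higher, 55 had 0 reads in constriction replicate 2, and only 12 lay above both controls in both constriction libraries. GPR61, an orphan G protein-coupled receptor, was called higher with 331 and 22 reads after transit against 2 and 4. HOXA7, a homeobox factor, was called higher from 286 reads in constriction replicate 1 and 0 in the other libraries. Neither was called with the replicate block.

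Both constriction libraries were higher than both controls in 61 genes, of which 23 were protein-coding and 14 processed pseudogenes. In these, constriction replicate 1 exceeded the control mean by a median of 17.1-fold and constriction replicate 2 by a median of 2.42-fold, with a range of 1.17 to 19.9-fold for the latter. The constriction replicates agreed within 2-fold in 5 genes, IGFBP7, HNRNPCP2, GPX1P1, MRPL46 and MSNP1, and differed by over 10-fold in 24. MRPL46, a protein of the mitochondrial ribosome, had 590 and 507 reads after transit against 192 and 337 in the controls, a log2 ratio of 1.44 ± 0.33 (SE). MSNP1, a pseudogene copy of moesin, had 59 and 48 reads against 17 and 14, a log2 ratio of 2.12, and was chosen after its values were seen.

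In the next 4 coding genes the constriction libraries were uneven but the groups were separated. PEAR1, a receptor of platelets and endothelium, had 1111 and 498 reads after transit against 105 and 293 in the controls, a log2 ratio of 2.47 ± 0.85 (SE). CHST10, which makes the HNK-1 carbohydrate on glycoproteins, had 835 and 418 reads against 155 and 279, a log2 ratio of 1.95 ± 0.63 (SE). SMIM11A, a small integral membrane protein, had 948 and 84 reads against 41 and 55. TSSK6, a kinase of late spermatid development, had 891 and 109 reads against 58 and 57. Without constriction replicate 1 the log2 ratios of PEAR1 and CHST10 were 1.63 and 1.22. SMIM11A and TSSK6 owed most of their higher mean to constriction replicate 1, with log2 ratios of 3.88 and 3.54 that became 1.06 and 1.15 without it. None of the 4 was called, with edgeR adjusted p-values of 0.231 for PEAR1, 0.343 for CHST10, 0.109 for SMIM11A and 0.135 for TSSK6.

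**Figure D5:**
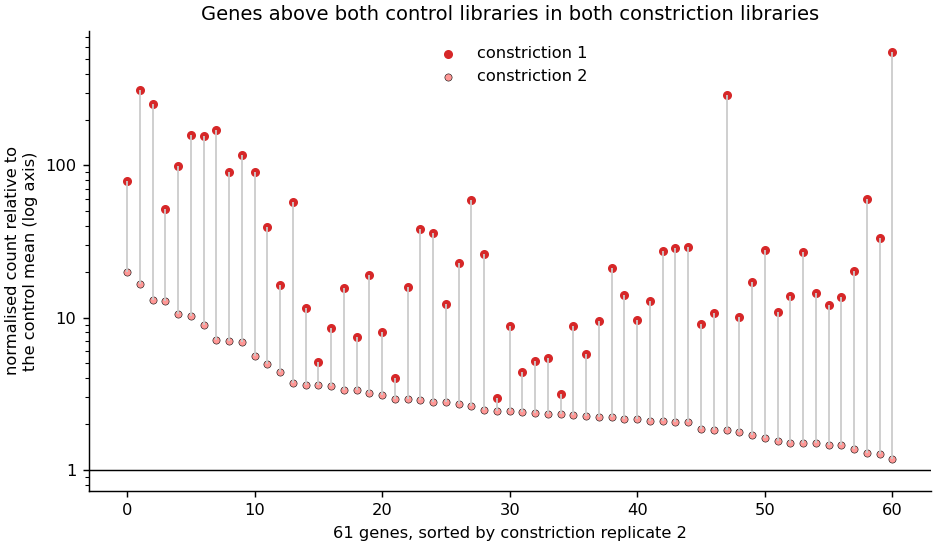
Normalised count relative to the control mean (log axis) for the 61 genes above both control libraries, sorted by constriction replicate 2, with a line joining the 2 constriction libraries of each gene. Constriction replicate 2 spans 1.17 to 19.9 times the control mean, and in 24 genes constriction replicate 1 lies more than 10-fold above it.

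The table holds too few defining markers to check the identity of the cells in full. Of 41 markers of MCF-10A and basal mammary epithelium, KRT16, CLDN4 and KRT19 were listed, and KRT16 and CLDN4 kept at least 427 reads in every library. KRT19, a simple epithelial keratin, fell to 0 from 5 and 21 reads. The listed markers of other cell types had reads in control cells alone. So did 89.6% of the table, so this was not particular to these markers. The table listed 1 of 25 leukocyte markers (ITGAM), 2 of 15 endothelial markers (PECAM1 and ESAM), 1 of 12 fibroblast markers (PDGFRB), 2 of 19 neuronal markers (TUBB3 and RBFOX3) and 4 of 33 striated muscle markers, but none of 14 erythroid and platelet markers. None of these had a read after transit. In control replicates 1 and 2 the summed normalised counts were 121 and 5.53 for leukocyte, 86.1 and 43.4 for endothelial and 125 and 94.7 for muscle markers. They were 21.5 and 17.4 for the fibroblast marker and 18.6 and 20.5 for neuronal markers.

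The listed luminal and secretory mammary markers differed between the controls, but not all in the same direction. The 3 listed of 22, LTF, PRLR and KRT19, summed to 485 normalised counts in control replicate 1 and 26.1 in control replicate 2, and to 0 in both constriction libraries. LTF, the milk protein lactoferrin, had 443 and 9 control reads, and PRLR, the prolactin receptor, had 47 and 3. KRT19, whose reads are given above, was higher in control replicate 2. Over the 2680 genes of the table, control replicate 1 was more than 5 times control replicate 2 in 257. Whether cells in a secretory state contributed to the decreases seen against control replicate 1 was not tested.

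Some of these genes were also in the tables of the other lines. The table of MDA-MB-231, a basal-like breast cancer line, held 381 genes and shared 48, which is 12.6% of that table and 1.79% of the MCF-10A table. The table of LM2, its lung-metastatic derivative, held 97 genes and shared 12, which is 12.4% and 0.448%. Of the 12, 5 were lower in MCF-10A and higher in LM2, 4 were lower in both lines, 1 was higher in both and 2 overlapped. Of the 48, 25 were lower in MCF-10A and higher in MDA-MB-231 with groups that did not overlap in either line, 14 were lower in both lines, 4 higher in both, 1 higher in MCF-10A and lower in MDA-MB-231, and 4 overlapped. Lower genes made up 94.5% of the MCF-10A table, and the share of higher genes in the other tables was not counted. Whether opposite directions were more frequent than such shares give was not tested. The tables were normalised separately and each was selected on its own comparison, so no test was made between lines.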

How the data were processed

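Messenger RNA of 4 MCF-10A libraries, 2 constriction and 2 control, was sequenced. Per the labels, the authors trimmed reads with fastp, aligned them to GRCh38 with HISAT2 2.0.5, counted reads per gene with featureCounts 1.5.0-p3 and compared groups with DESeq2 1.20.0. The deposited read counts are whole numbers, the deposited normalised counts (signal) are those counts divided by size factors of 0.830 and 0.966 for constriction and 1.02 and 1.27 for control, and the deposited FPKM are counts per gene length and total reads. The authors' fold changes, p-values and gene ontology results were not used, except that each p-value was checked to lie below 0.05. All 2680 gene IDs matched GENCODE release 29. Whether libraries kept strand is not given in the sources used here.

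Counts were tested with edgeR 4.0.16 (quasi-likelihood, the authors' size factors, Benjamini-Hochberg over 2680 genes, adjusted p under 0.05, two-sided) in R 4.3.3, after the script was tested on simulated data. Alternatives were DESeq2 1.42.0, limma 3.58.1, other scalings, a minimum mean of 10, a replicate block and leaving out each library. Scripts used Python 3.11.15, numpy 2.4.6 and pandas 2.3.3. Replicates are described as biological. The study lists a control and a constriction preparation under each numbered experiment but does not state that they were prepared together, so the replicate block is given as an alternative. Deviations of same-numbered libraries correlated at r = -0.04 over 2680 genes and -0.11 over 1209 genes with a mean of at least 10, which gives no support for a pairing. SE come from the spread of the normalised counts. A count of 0 was given a limit of 3 reads per library, which is 2.37 to 3.62 normalised counts.

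Genes, the 25 lists and the 30 families were chosen with earlier results of these data known. Named genes are up to 4 members with the highest mean of each list or family described, the 10 highest of the table (1 of which, a transcript used to tell sex, is not reported here), the 10 highest in control cells among genes at 0 reads after transit, the 10 highest above both controls and the 5 highest among genes at 0 in both controls. Others are marked as chosen after their values were seen.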

Additional observations from a re-analysis of the deposited data

Results flagged for a closer look

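Genes named here that moved one way in MCF-10A and the opposite way in another line, with groups that did not overlap in either line, are given as values. The differences between lines were not tested. HRNR had a log2 ratio of at most -5.48 in MCF-10A and 1.22 in MDA-MB-231, where normalised counts were 281 and 380 after transit and 108 and 175 in controls. LINC-PINT had at most -1.99 in MCF-10A and 0.95 in MDA-MB-231, and COX20, an assembly factor of cytochrome c oxidase chosen after its values were seen, had at most -3.25 and 1.31. SMIM11A had 3.88 in MCF-10A and -3.74 in MDA-MB-231, where control replicate 1 held 348 normalised counts and control replicate 2 held 24.9. SNORD12C had at most -3.78 in MCF-10A and 1.69 in LM2. With 2 libraries a group, a library that lies far from the rest of its group could not be tested for.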

How the results depend on the processing

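The count of genes called lower was 2497 and stayed within 1.5 times under DESeq2, both other scalings, the replicate block, both limma fits, the newer dispersion estimate (chosen after seeing the data) and adjustment over the whole annotation, but it was 1022 among the 1209 genes with a mean of at least 10. It ran from 1134 to 2515 when 1 library was left out. The count called higher was 68 and moved to 125 with DESeq2, 8 with scaling by total reads, 28 with a mean of at least 10, 10 and 8 with limma at pseudocounts of 1 and 10, 21 with the newer dispersion estimate and 0 when adjusted over the annotation, where edgeR gave 73 at an unadjusted p under 0.05. It ran from 1 to 142 when 1 library was left out. With the replicate block 2272 genes were called lower and 1 higher. The crossed pairing, also chosen after seeing the data, gave 2244 and 2. Both constriction libraries lay below both controls in 1062 genes with a mean of at least 10. Genes above both controls numbered 61 to 147 with 1 library left out. Without constriction replicate 1, log2 ratios turned to at most -0.27 for CAV3 and at most -0.23 for NUP210L, both limits set by a count of 0. For PCDHGB7 the ratio turned to -0.066. With another library left out the log2 ratios reached 6.87 for CAV3, 8.43 for NUP210L and 5.22 for PCDHGB7. The causes of these changes were not tested beyond the fewer genes or samples in a fit. Depth limits the genes at 0 reads, whose median limit is a 4.90-fold decrease.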
